A study of Mus musculus with 6 samples.

Results

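Fatty acid oxidation and its transcriptional targets were examined in oligodendrocytes, the myelin-forming glia of the central nervous system. The oligodendrocytes were taken fresh from the brains of mice with an induced deletion of Qk, which encodes quaking, and of control mice. The set holds 35 genes chosen by name: 25 encode enzymes and carriers of mitochondrial and peroxisomal beta-oxidation, and 10 are known targets of the PPAR nuclear receptors that handle fatty acids. All 35 were found by symbol among the 46983 features of the expression table, and 33 were abundant enough to be tested. The 3 WT libraries came from control mice, and the 3 Qk-KO libraries from Plp-CreERT2;QKLoxP/LoxP mice, in which tamoxifen activates a Cre recombinase under the Plp promoter and so deletes floxed Qk. Mice of both groups were FvB/C57BL6 hybrids and received tamoxifen at 8 weeks of age, and their brains were taken 4 days later. What alleles the controls carry beyond the label WT, and how many mice went into a library,, the labels do not say. The p-values therefore measure the spread between these libraries.

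Beta-oxidation shortens fatty acids from the carboxyl end in repeated rounds of oxidation, hydration, oxidation and thiolysis. Long chains enter mitochondria as carnitine esters, and electrons from the first oxidation reach the respiratory chain through electron transfer flavoprotein, whereas peroxisomes start on very long and branched chains. The receptor PPAR alpha, with RXR as its partner and PGC-1 alpha as a coactivator, raises transcription of many of these genes by binding paired AGGTCA-like half-sites. In the brain, astrocytes are known for the highest capacity for fatty acid oxidation, and oligodendrocytes need fatty acids mainly for the lipids of myelin. Quaking binds RNA at the hexamers ACTAAC and ACTAAT (written as DNA).

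Upstream sequence was looked up in the RefSeq table (build GRCm38.p6, 250 bases before to 50 after each start site), which held 29 of the 35 genes. Hadha and Hadhb, the genes of both subunits of the trifunctional protein, lie head to head on chromosome 5 with 85 bases between their annotated starts (GENCODE M21), so they share the sequence shown first, on the Hadhb strand. The upstream stretches of the neighbours Ucp3 and Ucp2 and of the neighbours Acot1 and Acot2 are shown because the members of the first pair moved differently and those of the second moved together. That of Cpt1a is shown because this gene holds the rate-limiting step. Capitals mark the half-site AGGTCA, the GC box GGGCGG, the CCAAT box or the TATA sequence TATAAA on either strand. Each stretch lies before the RefSeq start site and outside GENCODE exons, and that of Cpt1a lies within the gene as GENCODE draws it.
Hadha and Hadhb, chr5:30155163-30155247: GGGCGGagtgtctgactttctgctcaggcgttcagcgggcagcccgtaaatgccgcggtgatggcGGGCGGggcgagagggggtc
Ucp3, chr7:100472870-100472989, plus strand: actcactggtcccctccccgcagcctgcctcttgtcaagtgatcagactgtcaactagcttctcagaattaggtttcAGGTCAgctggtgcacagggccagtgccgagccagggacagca
Ucp2, chr7:100493217-100493336, plus strand: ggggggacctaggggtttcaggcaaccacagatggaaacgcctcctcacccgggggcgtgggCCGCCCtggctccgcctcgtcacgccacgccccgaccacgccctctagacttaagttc
Acot1, chr12:84009370-84009489, plus strand: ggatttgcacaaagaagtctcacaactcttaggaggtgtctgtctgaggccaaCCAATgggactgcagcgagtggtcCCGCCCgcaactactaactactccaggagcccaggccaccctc
Acot2, chr12:83987741-83987860, plus strand: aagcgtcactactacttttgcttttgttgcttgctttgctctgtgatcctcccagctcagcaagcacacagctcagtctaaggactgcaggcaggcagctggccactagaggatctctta
Cpt1a, chr19:3323165-3323284, plus strand: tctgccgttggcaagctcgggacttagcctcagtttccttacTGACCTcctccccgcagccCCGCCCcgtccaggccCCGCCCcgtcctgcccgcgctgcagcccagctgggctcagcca

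AGGTCA was present in the 300-base windows of 9 of the 29 members and in 16.3% of all 32851 windows. The 9 were Cpt1a, Cpt1c, Acadvl, Acadm, Echs1, Scp2, Plin5, Ucp3 and Fabp7. For this and the other motifs, members were counted by gene and the background by window, so the shares are not strictly alike. The direct repeat AGGTCANAGGTCA, which contains the half-site, and TCAAGGTCA, which also does, were found in no member's window, and in 0.0396% and 0.423% of all windows. GGGCGG was present in 22 of the 29 and in 35.7% of all windows, and CCAAT in 14 of the 29 and 37.4% of all. TATAAA was in no member's window and in 13.6% of all. The 250 bases upstream of Acot1 and Acot2 were 45.2% identical. These matches describe the letters in the windows only.

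The quaking hexamer was looked for in the 3′ UTR of the longest coding transcript of each gene (GENCODE M21). In the 300 bases after the stop codon it was present in 3 of the 21 members whose UTR is that long, and in 8.45% of 10379 tested genes. The 3 members were Hadha, Hadhb and Hsd17b4. Sites of 5 members are shown, Hadha and Hadhb as partners that moved differently, Cpt1a and Decr1 as members that fell, and Etfdh as a member that did not pass the test. Capitals mark the hexamer.
Cpt1a, base 459 after the stop codon: cacctgtaacacACTAATggaatggttagg
Hadha, base 29: accccaccatgcACTAACccagacctggca
Hadhb, base 249: cttttcacagagACTAATggctgctagcca
Decr1, base 1274: tttttgtatcttACTAATatatatttttta
Etfdh, base 68: aatgtatgccaaACTAACttcctgtatgtt

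Values per gene and library are regularized log2 values, in which counts are scaled by size factors and weakly expressed genes are pulled toward their mean. A change is the Qk-KO mean minus the WT mean on this scale, with its standard error (SE) from limma over 3 libraries per group, and a gene is called when its Benjamini-Hochberg adjusted p over all 15153 tested genes is under 0.05. Levels of different genes are compared only on a second scale, the back-transformed value per kilobase of annotated exon, scaled so that the sum is 1000000 over the nuclear protein-coding genes (length-scaled level). On that second scale each Qk-KO library stands lower, relative to each WT library, than on the log2 scale. The libraries were of 2 kinds. Ribosomal RNA features took 59.8% to 64.8% of the signal in the 3 WT libraries and Qk-KO replicate 1, which held an estimated 8700000 to 13100000 other reads each, and 1.88% to 2.23% in Qk-KO replicates 2 and 3, with 77100000 and 70000000. Both libraries low in ribosomal RNA were Qk-KO, so Qk-KO replicate 1 against the 3 WT libraries is given beside the main comparison. That comparison takes the spread of the single Qk-KO library to equal that of WT.

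The WT libraries held RNA of markers of other cell types beside those of oligodendrocytes, and the levels of these markers differed between the groups. Oligodendrocyte markers were the most abundant marker list, with summed length-scaled levels of 33183 to 40954 in WT and 42241 to 48997 in Qk-KO libraries. Of 12 such markers 7 were called higher and none lower, and the myelin gene Cnp, with a change of 0.54, was not called. Astrocyte markers summed to 9383 to 10606 in WT and to 1223 to 1822 in Qk-KO libraries, and 19 of 20 were called lower. The most abundant were Atp1b2, a sodium pump subunit, with a change of -3.92, and the glutamate transporter Slc1a2, with a change of -2.48. None of the 20 was without a read. Endothelial markers were lower in 10 of 10 and mural cell markers in 7 of 10, of which the most abundant were the glucose transporter Slc2a1 (-0.74) and Cldn5 (-1.01), and Rgs5 (-1.06) and Vtn (-0.82). Microglia and macrophage markers, among them C1qa (2.44), were higher in 8 of 16 and lower in 1, with sums of 1170 to 1864 in WT, 2917 and 3218 in Qk-KO replicates 1 and 2 and 12027 in Qk-KO replicate 3. Neuronal markers were called higher in 2 of 10, with Tubb3 at 1.51 and Snap25 at 0.02, beside 13.8% of all tested genes. They summed to 139 to 173 in WT and to 183 to 472 in Qk-KO libraries. Precursor markers were called lower in 2 of 10, beside 14.8% of all tested genes. Their changes ran from -2.13 to 0.41, with 7 of 10 below 0 and a median of -0.20. Olig1 (0.41) and Gpr17 (0.31) were above 0. In such bulk samples, fewer cells of a type and less RNA per cell cannot be told apart. The part of these differences in the results below was not tested.

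**Figure D1:**
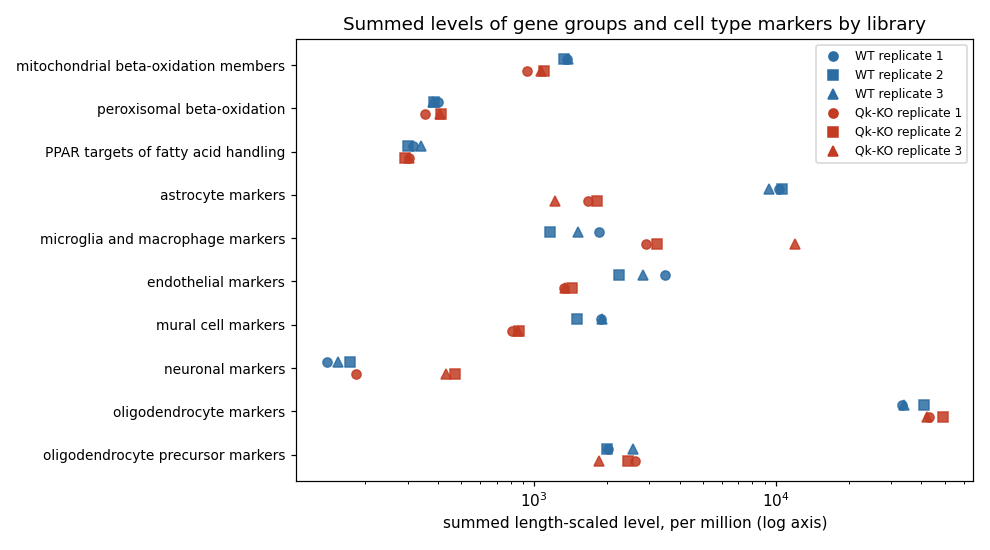
Summed length-scaled level (log axis) of 3 groups of the fatty acid genes and of 7 cell type marker lists, 1 point per library, WT blue and Qk-KO red. Astrocyte markers sum to 9383 to 10606 in WT and 1223 to 1822 in Qk-KO, and the mitochondrial genes to 1334 to 1381 and 931 to 1096.

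Of the 33 tested genes, 11 fell and 3 rose in Qk-KO, and 19 did not pass the test. Among all 15153 tested genes 14.8% were called lower and 13.8% higher, 28.6% in all, so the share of falls among the 33 was above that of all genes and the share of rises below it. The median change was -0.22, against 0.03 for all tested genes. The falls included genes of the carnitine shuttle (Cpt1a), the acyl-CoA dehydrogenases (Acadl, Acadm), the thiolases (Hadhb, Acaa2) and electron transfer (Etfa), while the 5 peroxisomal genes had no call. The thioesterases Acot1 and Acot2 and the dehydrogenase Hadh were the 3 that rose. All 3 Qk-KO libraries lay below all WT libraries for 12 of the 33 genes and above for 6, against 21.8% and 24.5% of all tested genes (46.3% in either direction).

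Against the 3 WT libraries, Qk-KO replicate 1 alone had 8 members lower and none higher, beside 9.37% and 6.17% of all tested genes. The 8 were Cpt1a, Acadm, Hadhb, Acaa2, Decr1, Etfa, Angptl4 and Ucp3. Etfa lay at the threshold there. The 20 mitochondrial genes differed from WT by a median of -0.50 in Qk-KO replicate 1, -0.16 in replicate 2 and -0.08 in replicate 3. The Qk-KO library of the same kind as WT, high in ribosomal RNA, thus stood lowest. The summed length-scaled level of these 20 genes was 931, 1096 and 1073 in Qk-KO replicates 1, 2 and 3. All 3 were below the 1334 to 1381 of WT. On that scale, however, Qk-KO stands lower relative to WT than on the log2 scale. Hadha, with a log2 change of 0.16, had a mean length-scaled level of 75.2 in both groups.

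The directions of most of these genes depend on the scaling of the libraries. With library totals that leave out ribosomal features, the median of all genes shifted by 0.04. None of the 14 called members changed direction there, and 9 stayed called. With ribosomal reads included in the totals, the median of all genes shifted by 1.06. There 10 of the 11 falls turned positive without being called, and Ucp3 alone stayed negative (-1.51, adjusted p = 0.0653). Centring on oligodendrocyte markers shifted the median of all genes by -0.90. There 28 members were called lower and none higher, and Acot1 had a change of 0.06. The calls of Cpt1a, Etfa, Hadh, Ucp3 and Acot1 remained when any single library was left out. Called members numbered 6 when WT replicate 1 or WT replicate 3 was left out, and 7 when WT replicate 2 or Qk-KO replicate 2 was, and the calls that each omission ended are given with the genes.

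**Figure D2:**
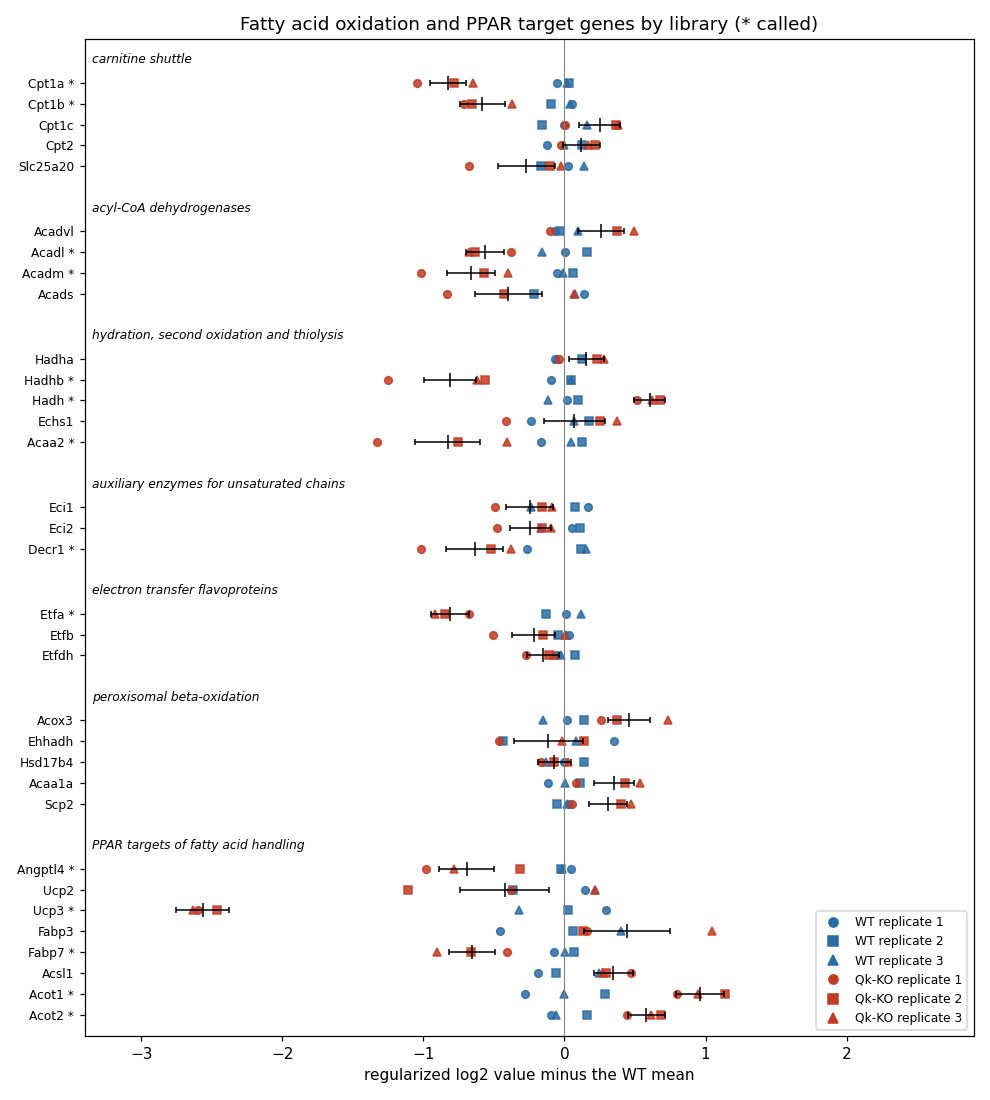
Deviation of each library from the mean of WT (regularized log2 units) for the 33 tested genes, grouped by role, on the scaling of the authors, with WT points in blue, Qk-KO points in red and the mean change with 1 SE from limma in black. Falls turn positive with ribosomal reads in the totals, except Ucp3, and Hadh and Acot2 turn negative with centring on oligodendrocyte markers. Ucp3 lies -2.57 from the WT mean, and the Qk-KO points of Cpt1a, Hadhb and Etfa lie left of all their WT points, those of Hadh and Acot1 right of them.

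The carnitine shuttle carries long-chain acyl groups across the inner mitochondrial membrane. Cpt1a, the carnitine palmitoyltransferase of the outer membrane that sets the rate of the pathway, had log2 values of 11.35, 11.44 and 11.42 in WT against 10.36, 10.62 and 10.75 in Qk-KO replicates 1, 2 and 3. The Qk-KO values were all below WT and spread wider (SD 0.200 against 0.045 in WT), and the fall was 0.83 ± 0.13 (SE, adjusted p = 0.00264). Per length its level went from 103 ± 3 to 52.2 ± 4.8 (SD, n = 3), which made it the most abundant of the shuttle genes in WT. Cpt1b, the isoform known from muscle, was less abundant at a length-scaled WT level of 11.1 ± 1.1. Its log2 values were 7.05, 6.90 and 7.04 in WT against 6.28, 6.34 and 6.63 in Qk-KO, a change of -0.58 ± 0.16 (adjusted p = 0.0280). This value is uncertain, since 81.4% of the exon bases of Cpt1b also belong to Gm44502 on the same strand, and the call rested on few libraries. Its adjusted p was 0.0854 when WT replicate 1 was left out, 0.0840 for WT replicate 3, 0.0502 for Qk-KO replicate 1 and 0.113 for Qk-KO replicate 2. Qk-KO replicate 1 alone gave 0.0826.

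The other shuttle genes did not pass the test. Cpt1c, the brain isoform of the endoplasmic reticulum, had values of 9.54, 9.39 and 9.71 in WT against 9.55, 9.91 and 9.93 in Qk-KO, a change of 0.25 ± 0.15 (adjusted p = 0.232). Cpt2, which rebuilds acyl-CoA inside mitochondria, changed by 0.12 ± 0.13 (adjusted p = 0.527), at a length-scaled level of 51.7 ± 2.5 in WT and 50.3 ± 3.9 in Qk-KO. Slc25a20, the carnitine-acylcarnitine exchanger, had values of 7.77, 7.57 and 7.88 in WT against 7.06, 7.63 and 7.71 in Qk-KO, with replicate 1 alone below all WT libraries (change -0.27 ± 0.20, adjusted p = 0.348).

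Acyl-CoA dehydrogenases carry out the first oxidation and differ in the chain length they accept. Acadl, for long chains, was the most abundant of all 35 genes per length in WT, at 192 ± 15 in WT and 117 ± 18 in Qk-KO. Its log2 values were 10.37, 10.53 and 10.20 in WT against 9.98, 9.73 and 9.69 in Qk-KO, a fall of 0.56 ± 0.13 (adjusted p = 0.0169). The groups did not overlap, but Qk-KO replicate 1 stood nearest to WT, and alone it changed by -0.38 (adjusted p = 0.175). Acadm, for medium chains, had values of 9.28, 9.39 and 9.32 in WT against 8.31, 8.76 and 8.93 in Qk-KO. It fell by 0.66 ± 0.17 (adjusted p = 0.0224), with the lowest value in Qk-KO replicate 1. The call of Acadl ended on leaving out WT replicate 1 (adjusted p = 0.0596), WT replicate 2 (adjusted p = 0.0579) or Qk-KO replicate 2 (adjusted p = 0.0704). That of Acadm ended for these too (0.0640, 0.0708 and 0.0561) and for WT replicate 3 (0.0716).

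Acadvl, for very long chains, and Acads, for short ones, were not called. Acadvl had values of 10.27, 10.30 and 10.43 in WT against 10.23, 10.71 and 10.83 in Qk-KO, a change of 0.26 ± 0.16 (adjusted p = 0.267). Without Qk-KO replicate 1 it passed at 0.44 (adjusted p = 0.0177), and 42.9% of its exon bases overlap Dvl2 on the opposite strand, which cannot be separated if reads were counted without strand. Acads had values of 8.21, 7.85 and 8.15 in WT against 7.23, 7.64 and 8.14 in Qk-KO, spread wider than the difference between the groups (-0.40 ± 0.24, adjusted p = 0.237). On leaving out Qk-KO replicate 3 it passed (-0.63, adjusted p = 0.0488).

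The next 3 steps of long-chain oxidation take place on the trifunctional protein, whose alpha subunit is encoded by Hadha and whose beta subunit, the thiolase, by Hadhb. Hadhb had log2 values of 10.62, 10.76 and 10.76 in WT against 9.46, 10.15 and 10.09 in Qk-KO, a fall of 0.81 ± 0.19 (adjusted p = 0.0147). Hadha had values of 11.07, 11.26 and 11.08 in WT against 11.10, 11.37 and 11.41 in Qk-KO, a change of 0.16 ± 0.12 (adjusted p = 0.373). The length-scaled levels were nearly equal in WT, 75.2 ± 2.2 for Hadha and 74.4 ± 3.6 for Hadhb, whereas in Qk-KO they were 75.2 ± 6.1 and 38.6 ± 8.6. The call of Hadhb was lost without WT replicate 2 (adjusted p = 0.0512) or WT replicate 3 (0.0588), and Qk-KO replicate 1 alone lay -1.25 from WT (adjusted p = 0.00167). These are the genes that share the 85-base interval printed above.

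Acaa2, the mitochondrial thiolase for medium and short chains, had values of 8.85, 9.13 and 9.06 in WT against 7.69, 8.26 and 8.61 in Qk-KO. It fell by 0.83 ± 0.23 (adjusted p = 0.0296), and in Qk-KO replicate 1 alone it changed by -1.33 (adjusted p = 0.00478). The call ended on leaving out any WT library (adjusted p = 0.0624, 0.0922 and 0.0941) or Qk-KO replicate 2 (0.0724) and without a filter on low values (0.0664). Hadh, the dehydrogenase for short and medium chains, went the other way. Its log2 values were 10.26, 10.34 and 10.12 in WT against 10.76, 10.92 and 10.86 in Qk-KO, a rise of 0.60 ± 0.11 (adjusted p = 0.00574). All 3 Qk-KO libraries were above all WT libraries, but for Qk-KO replicate 1 alone the difference of 0.52 missed the threshold (adjusted p = 0.0563). Echs1, the short-chain hydratase, changed by 0.07 ± 0.22 (adjusted p = 0.836), with values from 9.58 to 9.99 in WT and from 9.40 to 10.19 in Qk-KO.

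Unsaturated chains need auxiliary enzymes. Decr1, the dienoyl-CoA reductase, had values of 8.80, 9.18 and 9.22 in WT against 8.05, 8.55 and 8.69 in Qk-KO, a fall of 0.64 ± 0.20 (adjusted p = 0.0464). This call lay close to the threshold and ended without any library but Qk-KO replicate 3 (adjusted p from 0.0526 to 0.148), and Qk-KO replicate 1 alone lay -1.02 from WT (adjusted p = 0.0212). The isomerases Eci1 and Eci2 were not called. Eci1, the most abundant of the 3 per length at 70.2 ± 10.1 in WT, had log2 values of 9.16, 9.06 and 8.75 in WT against 8.50, 8.83 and 8.90 in Qk-KO, which overlapped (-0.25 ± 0.16, adjusted p = 0.287). Eci2 changed by -0.24 ± 0.15 (adjusted p = 0.239).

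Electron transfer flavoprotein is a dimer of the products of Etfa and Etfb, and Etfdh passes its electrons to ubiquinone. Etfa had values of 8.91, 8.76 and 9.01 in WT against 8.22, 8.04 and 7.98 in Qk-KO. It fell by 0.81 ± 0.14 (adjusted p = 0.00388), and its length-scaled level went from 75.9 ± 9.4 to 38.7 ± 5.1. Unlike most of the mitochondrial falls, this one was not deepest in Qk-KO replicate 1. Etfb, the more abundant partner at a length-scaled WT level of 128 ± 9, had log2 values of 9.03, 8.95 and 9.01 in WT against 8.49, 8.85 and 8.998 in Qk-KO. Its change was -0.22 ± 0.15 (adjusted p = 0.312), and 58.2% of its exon bases are shared with other features on the same strand, chiefly Gm45233. Etfdh changed by -0.15 ± 0.12 (adjusted p = 0.352), although all its Qk-KO values lay below WT.

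None of the 5 peroxisomal genes was called, and their median change was 0.31. Hsd17b4, the D-bifunctional protein, was the most abundant at a length-scaled level of 156 ± 10 in WT and 132 ± 3 in Qk-KO. Its log2 values were 10.82, 10.96 and 10.69 in WT against 10.66, 10.75 and 10.85 in Qk-KO, a change of -0.07 ± 0.12 (adjusted p = 0.670). Acox3, an acyl-CoA oxidase for branched chains, had values of 10.16, 10.28 and 9.98 in WT against 10.40, 10.51 and 10.87 in Qk-KO, all above WT (0.46 ± 0.15, adjusted p = 0.0557). In the authors' deposited table Acox3 had a change of 0.56 ± 0.21 with an adjusted p of 0.0360. The thiolase Acaa1a (0.35 ± 0.14, adjusted p = 0.103) and the thiolase and sterol carrier Scp2 (0.31 ± 0.13, adjusted p = 0.122) were highest in the Qk-KO libraries 2 and 3. Without Qk-KO replicate 1, Acox3 (0.55, adjusted p = 0.0239), Acaa1a (0.48, adjusted p = 0.0140) and Scp2 (0.43, adjusted p = 0.0141) passed. Qk-KO replicate 1 alone differed from WT by 0.26, 0.08 and 0.05 for these 3 genes. Ehhadh, the L-bifunctional enzyme, had a change of -0.11 ± 0.24 (adjusted p = 0.756).

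**Figure D3:**
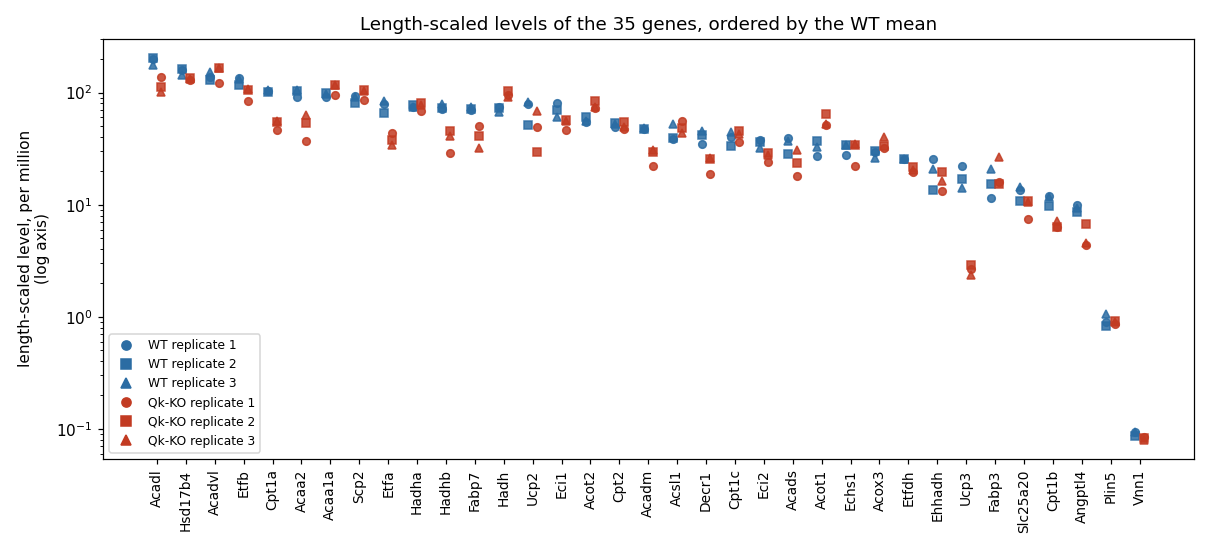
Length-scaled level (log axis) of all 35 genes, ordered by the WT mean, 1 point per library with WT blue and Qk-KO red. Acadl is highest at 192 in WT, Ucp3 goes from 17.6 in WT to 2.63 in Qk-KO, and Plin5 (0.93 in WT) and Vnn1 are lowest.

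Of the 8 tested PPAR targets 3 fell and 2 rose, with a median change of -0.04. Ucp3, a mitochondrial carrier best known from muscle and induced by fatty acids, had the largest change of all 35 genes. Its log2 values were 7.84, 7.57 and 7.22 in WT against 4.95, 5.08 and 4.91 in Qk-KO, a change of -2.57 ± 0.19 (adjusted p = 0.000127). Qk-KO replicate 1 alone gave -2.60 (adjusted p = 0.00159). The regularized scale understates changes of genes this weakly expressed, and the authors' deposited table gives Ucp3 a change of -4.18 ± 0.38. Its neighbour Ucp2, the widely expressed relative abundant in phagocytes, had values of 10.85, 10.34 and 10.92 in WT against 10.32, 9.59 and 10.92 in Qk-KO. The Qk-KO libraries of Ucp2 lay far apart, with replicate 2 lowest and replicate 3 equal to the highest WT library, and overlapped WT (-0.42 ± 0.32, adjusted p = 0.339). The gap between both genes on chromosome 7 is 6904 bases, and their coding sequences are 74.0% identical.

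Angptl4, a secreted inhibitor of lipoprotein lipase, had values of 6.86, 6.79 and 6.79 in WT against 5.83, 6.50 and 6.03 in Qk-KO. Its fall of 0.69 ± 0.20 (adjusted p = 0.0315) rested on few reads, an estimated 35 in Qk-KO replicate 1. The call of Angptl4 ended without any library but Qk-KO replicate 2 (adjusted p from 0.0578 to 0.0928) and without a filter (0.0590). Fabp7, the brain fatty acid binding protein known from radial glia and astrocytes, had values of 8.19, 8.33 and 8.27 in WT against 7.86, 7.61 and 7.36 in Qk-KO. It fell by 0.66 ± 0.16 (adjusted p = 0.0197), but leaving out any WT library (adjusted p = 0.0534, 0.0621 and 0.0658) or Qk-KO replicate 2 (0.0701) ended the call. Qk-KO replicate 1 alone lay -0.41 from WT (adjusted p = 0.215). Fabp3, the heart isoform, had values from 4.98 to 5.83 in WT and from 5.57 to 6.48 in Qk-KO, where replicate 3 was highest (0.45 ± 0.30, adjusted p = 0.299). With the number series of the sample descriptions in the model Fabp3 passed at 0.71 (adjusted p = 0.0220).

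The acyl-CoA thioesterases Acot1, of the cytosol, and Acot2, of mitochondria, release free fatty acids from acyl-CoA and rose together. Acot1 had values of 8.47, 9.03 and 8.75 in WT against 9.55, 9.89 and 9.70 in Qk-KO, a rise of 0.96 ± 0.17 (adjusted p = 0.00516). Acot2 had values of 8.66, 8.91 and 8.69 in WT against 9.19, 9.44 and 9.36 in Qk-KO, a rise of 0.58 ± 0.13 (adjusted p = 0.0139). No Qk-KO library overlapped WT for either gene. For Qk-KO replicate 1 alone neither passed (0.80, adjusted p = 0.0606, and 0.44, adjusted p = 0.163). The call of Acot2 ended on leaving out WT replicate 1 (adjusted p = 0.0567), WT replicate 3 (adjusted p = 0.0569) or Qk-KO replicate 2 (adjusted p = 0.0682). The coding sequences are 85.5% identical and share an unbroken stretch of 273 bases, so reads of one gene may have been counted to the other or dropped. Acsl1, which activates long-chain fatty acids, had values of 10.40, 10.53 and 10.84 in WT against 11.06, 10.89 and 10.86 in Qk-KO (0.35 ± 0.14, adjusted p = 0.0967).

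Plin5 and Vnn1 were too weak to test. Plin5, which coats lipid droplets, had log2 values from 2.65 to 2.88 in WT and from 2.71 to 2.93 in Qk-KO, at a mean length-scaled level of 0.93 in WT and 0.89 in Qk-KO. Vnn1, a pantetheinase, had a mean normalized count of 0.617 over the 6 libraries, too low for a difference to be tested at this depth.

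The difference of 2 log2 values was taken within each library, where any scaling of the library cancels. The 8 pairs were chosen after their values were seen. Hadhb minus Hadha was -0.45, -0.50 and -0.32 in WT against -1.64, -1.21 and -1.32 in Qk-KO, a shift of -0.97. Etfa minus Etfb was -0.12, -0.19 and 0.00 in WT against -0.27, -0.80 and -1.02 in Qk-KO, and here Qk-KO replicate 1 stood close to WT (shift -0.60). Acadm minus Acadvl shifted by -0.92 and was nearly constant within Qk-KO, at -1.92, -1.95 and -1.90. Cpt1a minus Cpt2 went from 2.75, 2.58 and 2.69 in WT to 1.65, 1.67 and 1.86 in Qk-KO (shift -0.95), and Ucp3 minus Ucp2 shifted by -2.14. The groups did not overlap for any of the 8 pairs. With 3 libraries against 3, the two-sided exact permutation test gave p = 0.1 for each, the smallest it allows (Benjamini-Hochberg adjusted p = 0.1), so none passes.

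**Figure D4:**
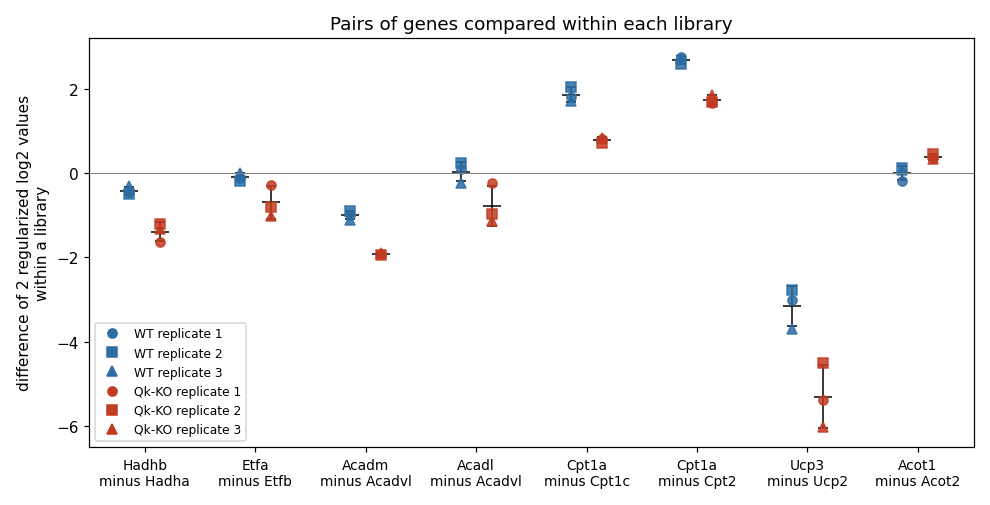
Difference of 2 regularized log2 values within each library for 8 pairs of genes, each library as a point, WT blue and Qk-KO red, with the group mean and SD in black. For Hadhb minus Hadha the WT points lie from -0.50 to -0.32 and the Qk-KO points from -1.64 to -1.21.

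Of 31 tested genes of fatty acid uptake, activation and oxidation outside the set, 11 fell and 2 rose, beside 14.8% and 13.8% of all tested genes, with a median change of -0.05. The acyl-CoA synthetases Acsl6 and Acsbg1 had changes of -2.74 ± 0.18 and -2.64 ± 0.18, the fatty acid transporter Slc27a1 of -1.85 ± 0.11, and Acacb, whose product malonyl-CoA inhibits CPT1, of -1.09 ± 0.15 (adjusted p = 0.0019 or lower for each). Astrocyte markers had a median change of -2.79 in the same libraries, and their part in these falls was not tested. The 2 that rose were the transporter Slc27a4 (1.14 ± 0.17) and the isomerase Ech1 (0.65 ± 0.16).

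Among further PPAR targets, Lpl, lipoprotein lipase, rose by 2.92 ± 0.40. Lpl was 9.75, 9.12 and 10.92 in Qk-KO replicates 1, 2 and 3, highest in the library with the highest microglia markers, whose part was not tested. Pdk4, Cd36 and Plin2 had no call, and Fabp1, Cyp4a10, Cyp4a14, Fgf21, Cidec and Aqp7 had no read in any library. Bdh1 (0.74 ± 0.12) and Oxct1 (0.76 ± 0.13), which act in the use of ketone bodies, rose. Both passed for Qk-KO replicate 1 alone as well (adjusted p = 0.0313 and 0.0410). Of 10 tested regulators, Ppargc1a (PGC-1 alpha) had values of 9.61, 9.61 and 9.55 in WT against 7.59, 7.26 and 6.68 in Qk-KO, a fall of 2.42 ± 0.22. Ppara had 6.48, 6.85 and 6.65 in WT against 4.72, 5.33 and 5.28 in Qk-KO, a fall of 1.55 ± 0.21. No Qk-KO library overlapped WT for either. Rxrb, a partner receptor, rose by 0.39 ± 0.12 (adjusted p = 0.0444), a call kept on leaving out 2 of the 6 libraries, while Ppard had no call and Pparg was below the filter.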

How the data were processed

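RNA of freshly isolated oligodendrocytes was sequenced in 3 WT and 3 Qk-KO libraries. The submitters' processing notes list FastQC, TopHat2 2.0.14, featureCounts and, used by the authors, DESeq2, with build mm10; no source used here gives the annotation release, strandedness or read length. The deposited numbers per library behave as regularized log2 values, which is inferred from the values, since no header names the transform. A further deposited signal is the mean normalized count, which the authors took over the 6 libraries. Their comparison, as deposited, holds a log2 fold change with its error, a test score and p-values.

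No counts per library are given, so limma 3.58.1 (R 4.3.3, variance trend, genotype alone) was run on the log2 values of the 15153 features whose mean normalized count reached 20, after a test on simulated data. Adjusted p under 0.05 is called. Approximate reads come from size factors, found from the steps that 1 read makes in the lowest means. These steps accounted for 2556 of 2556 features of mean 0.4 or less within 1e-06. Coordinates and exon lengths come from GENCODE M21, which holds 46488 of the 46983 features.

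The genes and lists were chosen with earlier results of these data known. By rule, every gene of the set is accounted for, with full values for called genes and the most abundant of each role. Of each further pathway list up to 4 called genes by adjusted p are eligible, and of each marker list the 2 most abundant; some are not reported here. Any other named gene was chosen with its values in view. The alternatives were filters, limma settings, library type, number series, replicate block, scalings and leaving out each library.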

Additional observations from a re-analysis of the deposited data

How the results depend on the processing

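Of the 33 tested members, 14 were called in all 6 libraries. With library type in the model 9 were, with Qk-KO replicate 1 as the only Qk-KO library 8, scaled to library totals with ribosomal features 4 and without them 9, and centred on oligodendrocyte markers 28. Totals without ribosomal features ended the calls of Cpt1b (limma adjusted p = 0.080), Acadm (0.061), Acaa2 (0.061), Decr1 (0.097) and Angptl4 (0.074). Over all genes the calls numbered 4330, and 2258, 2355, 2447 and 11630 with type, Qk-KO replicate 1, ribosomal totals and centring. For the other pathway lists they numbered 20, with 10 for ribosomal totals and 43 for centring. The 8 members called in Qk-KO replicate 1 became 4 with no filter and 21 with centring, an alternative chosen after seeing the data. Leaving out each library gave 6 to 15 members, 2370 to 5633 genes, 15 to 25 genes of the other lists and, for Qk-KO replicate 1, 6 to 12 members. The share of calls that were higher was 48.2%, against 97.3% with ribosomal totals, 0.74% with centring, 41.1%, 40.8% and 39.2% without WT replicate 1, WT replicate 3 and Qk-KO replicate 2, 38.7% with type and 39.7% with Qk-KO replicate 1.

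With ribosomal features in the totals, which shifts all genes upward, the changes were Cpt1a 0.23, Cpt1b 0.48, Acadl 0.49, Acadm 0.39, Hadhb 0.25, Acaa2 0.23, Decr1 0.42, Etfa 0.24, Angptl4 0.36 and Fabp7 0.40. With centring, which shifts them downward, they were Cpt1c -0.65, Cpt2 -0.78, Acadvl -0.64, Hadha -0.74, Hadh -0.29, Echs1 -0.83, Acaa1a -0.55, Scp2 -0.59, Acsl1 -0.55 and Acot2 -0.32.

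A replicate block left 14 members, 4345 genes and 20 genes of the other lists called. Deviations of same-numbered libraries correlated at 0.10, 0.0046 and 0.082, and not every library correlated best with its own number. The numbers were therefore not taken to pair the libraries, although these values cannot exclude a pairing.

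The WT libraries and Qk-KO replicate 1 held 8700000 to 13100000 non-ribosomal reads, and Plin5, Vnn1, Fabp3 and Angptl4, and Ucp3 in Qk-KO replicate 1, rest on few reads there.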
